A study of Mus musculus with 16 samples.

Results

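The genes described here mark macrophages, monocytes and dendritic cells, the mononuclear phagocytes, and were followed in the cortex of the mouse kidney after treadmill running. They were given as 36 gene symbols, ordered here in 10 groups by role, and all 36 were found by their Ensembl identifiers among the 55414 genes counted. Of these, 35 had enough counts to be tested, within 16126 tested genes. The scavenger receptor Cd163 was left out of the tests, with 0 to 5 counts per library.

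RNA was sequenced from pieces of kidney cortex of male wild-type mice of the inbred laboratory strain C57BL/6J. Mice were kept sedentary, or were made to run on a treadmill for 40 min at 70% of capacity over 24 h (1 day), 1 wk or 2 wk. Each of the 4 groups had 4 libraries, numbered 1 to 4. It is not stated whether the 24 h mice ran within a day or were killed a day after a single run, nor how long before death the last run ended. The labels carry in each title an unexplained letter, one for sedentary and another for all running groups, which cannot be told apart from running. Whether each library came from a separate animal is not stated either, so the spread behind the p-values is that of libraries and may be technical. The whole cortex was used with no sorting of cells, so that the phagocyte transcripts are a small part of tubule, vessel and glomerulus RNA.

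Mononuclear phagocytes form a network between the tubules and capillaries of the healthy kidney. Macrophages take up dead cells and immune complexes, monocytes arrive from the blood and can replace them, and dendritic cells carry antigen to lymph nodes and present it to T cells. Growth of the macrophage lineage depends on the receptor Csf1r and its ligands, growth of dendritic cells on Flt3, and the identity of the whole lineage on the transcription factor PU.1, encoded by Spi1, which binds purine-rich DNA with a GGAA core of the ETS family.

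Promoter sequences were at hand for 28 of the 36 genes, from RefSeq on GRCm38.p6. Letters of ETS type were searched for on both strands in the 250 bases before and 50 bases after each start site. The letters GGAAGT were found in 19 of 33 promoter entries of these genes (57.6%) and in 23.8% of all 32851 promoters of the same length. The longer GAGGAAG, a PU.1 core, was found in 33.3% of the entries and in 13.6% of all promoters. The spaced letters GGAANNGAA, which PU.1 and IRF factors can share, were found in 15.2% of the entries and in 8.24% of all promoters. These motifs can overlap each other, and a match describes letters only, not a bound site. The 160 bases just before the RefSeq start site are shown, 5′ to 3′ on the gene's own strand, for 4 genes among the 6 of smallest p at 1 wk or 2 wk, and for Fcgr2b, which varied least over the 16 libraries. These 5 were taken from the genes that hold GGAAGT, and Coro1a, also among the genes of smallest p, holds it in neither of its entries. Capitals mark GGAAGT, or ACTTCC where the letters lie on the other strand.
Cd209a, chr8:3748985-3749144, minus strand: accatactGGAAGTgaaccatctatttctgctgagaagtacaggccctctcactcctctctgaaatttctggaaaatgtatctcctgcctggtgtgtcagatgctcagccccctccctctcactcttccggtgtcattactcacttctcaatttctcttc
Spn, chr7:127137824-127137983, minus strand: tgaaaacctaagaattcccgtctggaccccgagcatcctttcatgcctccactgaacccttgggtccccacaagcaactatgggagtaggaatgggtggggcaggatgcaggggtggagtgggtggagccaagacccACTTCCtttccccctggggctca
Itgax, chr7:128129390-128129549, plus strand: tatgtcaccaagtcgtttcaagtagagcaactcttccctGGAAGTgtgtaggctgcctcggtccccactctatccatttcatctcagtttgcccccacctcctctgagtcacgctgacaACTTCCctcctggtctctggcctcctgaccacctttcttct
C1qb, chr4:136886201-136886360, minus strand: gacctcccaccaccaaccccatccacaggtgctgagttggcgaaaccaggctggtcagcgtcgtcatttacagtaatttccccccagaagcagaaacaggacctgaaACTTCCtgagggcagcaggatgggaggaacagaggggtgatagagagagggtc
Fcgr2b, chr1:170976072-170976231, minus strand: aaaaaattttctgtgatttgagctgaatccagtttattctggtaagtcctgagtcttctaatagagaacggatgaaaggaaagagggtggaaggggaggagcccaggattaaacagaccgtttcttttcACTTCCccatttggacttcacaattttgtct
Itgax held the letters 2 times within these bases, once on each strand, and the other 4 held them once.

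Libraries held 39766260 to 66852397 counts, of which the 36 genes took 0.0277 to 0.0454%, or 256347 counts in all 16 libraries. Transcripts of cortical tubules were abundant in each library: the 9 proximal tubule genes summed to 18197 to 21057 CPM (counts scaled to library size, with TMM factors) in sedentary libraries, 17542 to 20788 CPM at 24 h, 18323 to 21733 CPM at 1 wk and 18584 to 23449 CPM at 2 wk. The 36 phagocyte genes summed to 319 to 371 CPM in sedentary libraries, 322 to 453 CPM at 24 h, 282 to 352 CPM at 1 wk and 282 to 320.01 CPM at 2 wk. Some libraries stood apart. At 24 h, library 3 was the highest of all 16 libraries for 18 of the 35 tested genes and library 1 for 9, whereas libraries 2 and 4 of that group lay below the sedentary mean for 28 and 27 genes. At 1 wk, library 3 was the highest of its group for 23 genes. Sedentary library 2 was the lowest of its group for 27 genes. Counts over the 35 genes are given below without a library where that moves them by more than 1.5 times. The percentages of all genes given beside the counts are for all libraries, and were not counted with a library left out.

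Levels in sedentary cortex were compared between genes as CPM per kb of exon (RPKM). The chains of C1q, the starting protein of the classical complement pathway, were the most abundant, with C1qa at 20.5 ± 2.43 RPKM and C1qb at 19.3 ± 3.15 RPKM (SD, n = 4 here and below), which differ by less than their spread. Lyz2, the lysozyme of myeloid cells, followed at 18.5 ± 5.85 RPKM, and Csf1r, the receptor of colony stimulating factor 1, at 11.6 ± 1.21 RPKM. Adgre1, which encodes the macrophage antigen F4/80, stood at 0.949 ± 0.1305 RPKM, at the 32.6 percentile of tested genes, well below Csf1r at the 77.9 percentile. Ptprc, the leukocyte phosphatase CD45, reached 0.201 ± 0.0327 RPKM, with all its annotated exons, 18313 bases, taken as its length. The lowest tested genes were Xcr1, at 0.0921 ± 0.0304 RPKM, Flt3, at 0.101 ± 0.0249 RPKM, and Itgam, at 0.112 ± 0.0242 RPKM, where a library held 6 to 45 counts. Another gene model covers 3450 of the 5024 exon bases of Itgam, so its RPKM and its place in this order are uncertain. Cd163 had 0.0148 ± 0.00492 RPKM, with sedentary libraries at 0.0427 to 0.105 CPM. Every one of the 36 genes had counts in sedentary cortex, and the dendritic cell genes other than Cd209a lay at the low end of the order.

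**Figure D1:**
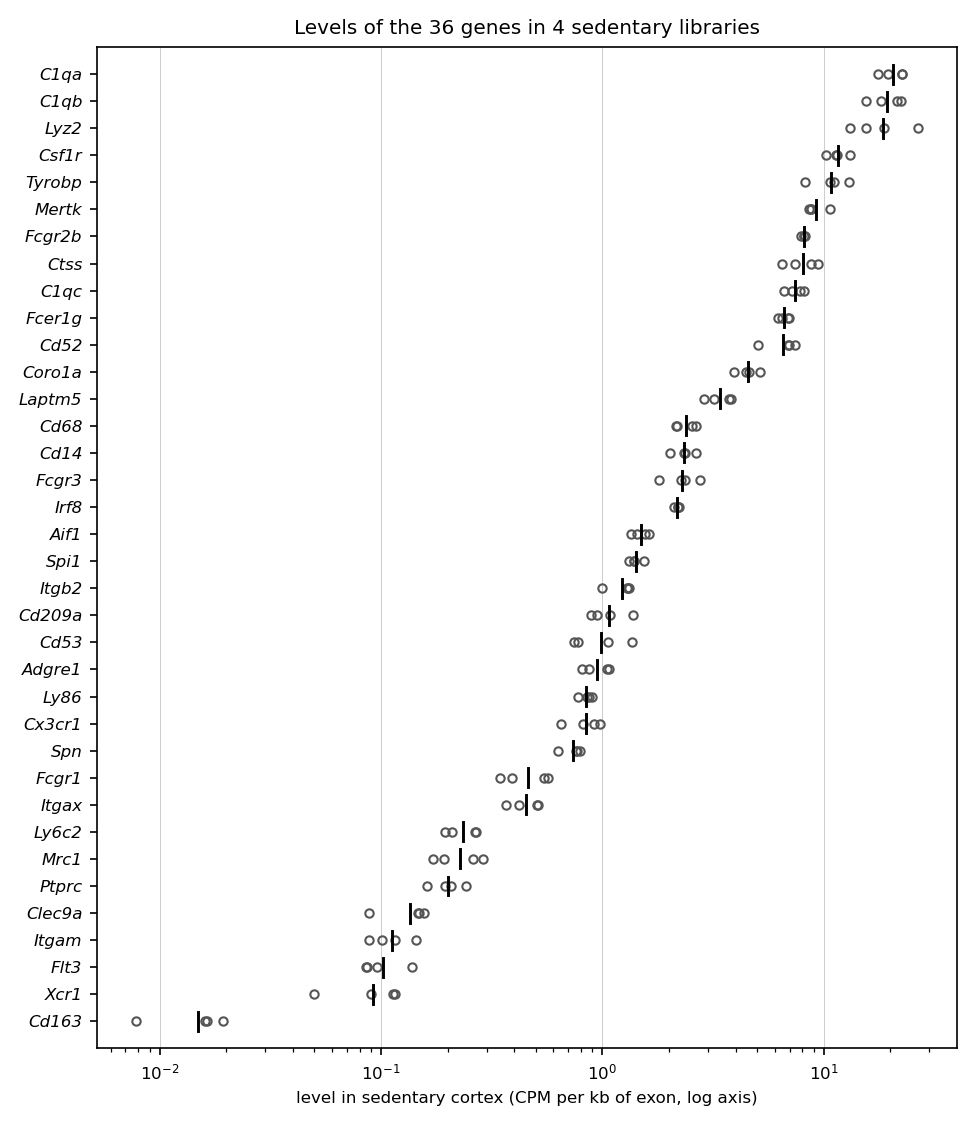
Level of each of the 36 genes in the 4 sedentary libraries as CPM per kb of exon, on a log axis; circles are libraries and bars are group means. C1qa, C1qb and Lyz2 lie highest and Cd163 lies apart at the low end.

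After 24 h of running, the phagocyte genes as a group lay close to the sedentary level. Of the 35 tested genes 11 had a negative log2 fold change, against 51% of all tested genes, with a median log2 fold change of 0.08 for the 35 genes and of −0.005 for all tested genes. EdgeR's quasi-likelihood test called no gene at an adjusted p under 0.05, here or in the whole table (0%). DESeq2 and voom called none of the 35, against 77 and 59 genes in the whole table. At an unadjusted p under 0.05, 1 of the 35 genes was lower, against 4.43% of all genes, and 1 was higher, against 4.49% of all genes. The higher gene was Cd68 and the lower one the inhibitory Fc receptor gene Fcgr2b, and neither had such a p without 24 h library 3. Without 24 h library 2 there were 5 higher genes and without 24 h library 4 there were 3, and without sedentary library 2 or 4 there were 0. Fcgr2b was the one gene of the 35 whose 24 h libraries all lay below all sedentary libraries, a separation seen in 3.66% of all genes, and 2 genes were separated in this way without 24 h library 1, 24 h library 2 or sedentary library 2. The sign of the median depended on 24 h library 3: without it, 21 of 35 genes were negative and the median was −0.03. Without 24 h library 1, 17 genes were negative, and without sedentary library 4, 7 were. Libraries 1 and 3 at 24 h lay above all sedentary libraries for 21 and 23 of the 35 genes, but libraries 2 and 4 for 2 and 4.

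After 1 wk of running, nearly all of these genes had lower values than in sedentary mice. Of the 35 genes, 33 had a negative log2 fold change, against 48.9% of all tested genes, and the median was −0.39, against 0.004 for all genes. In bulk tissue, fewer cells of a type and less RNA per cell cannot be told apart. No gene passed at an adjusted p under 0.05 by edgeR, in this list or among all genes (0%). DESeq2 called 2 of the 35, Spn (adjusted p = 0.0422) and Cd209a (adjusted p = 0.0424), against 14 genes in the whole table. Voom called none of the 35, against 6 genes in the whole table. At an unadjusted p under 0.05, 11 of the 35 genes were lower by edgeR, against 3.72% of all tested genes. All 4 libraries lay below all sedentary libraries for Mrc1, Spn, Itgam, Cd209a and Cd53, 5 of the 35, against 2.51% of all genes. Without 1 wk library 3 the median was −0.54, with 21 genes at an unadjusted p under 0.05 and 20 without overlap, although fewer libraries make a gap between groups easier to reach. The number at an unadjusted p under 0.05 was 7 without 1 wk library 2, 7 without sedentary library 1 and 6 without sedentary library 3, and the number without overlap was 8 without 1 wk library 4 and 10 without sedentary library 2.

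After 2 wk the picture was alike, with the libraries closer together. Of the 35 genes, 34 had a negative log2 fold change, against 47.9% of all tested genes, the exception being Mertk. The median was −0.40, against 0.008 for all genes. EdgeR called none of the 35 and none of all genes (0%). DESeq2 called Cd209a alone (adjusted p = 0.000787), against 35 genes in the whole table, and voom called none of the 35 genes, against 7. At an unadjusted p under 0.05, 14 of the 35 genes were lower by edgeR, against 3.24% of all genes. All 4 libraries lay below all sedentary libraries for 13 of the 35, against 2.61% of all genes: C1qa, C1qb, C1qc, Fcer1g, Ly86, Spn, Ctss, Itgam, Itgax, Cd209a, Spi1, Cd53 and Coro1a. The 14 genes at an unadjusted p under 0.05 became 9 without sedentary library 1, 9 without sedentary library 3 and 8 without sedentary library 4. The comparisons with sedentary mice share the same 4 sedentary libraries.

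Over the 4 groups together, 21 of the 35 genes had an unadjusted p under 0.05 by edgeR's quasi-likelihood test, against 8.73% of all tested genes. That number was 12 without 24 h library 1 and 13 without 24 h library 3. None of the 35 had an adjusted p under 0.05 by edgeR, against 2 genes in the whole table (0.0124%). With no filter on low counts edgeR called 1 of the 36 genes, against 10 in the whole table. Without 1 wk library 3 edgeR called 1 of the 35, against 4 in the whole table. DESeq2 called 7 of the 35, against 160 genes in the whole table, and voom called 1, against 34. The smallest adjusted p was that of the lectin receptor gene Cd209a (0.07402), then of Spn (0.206) and Cd68 (0.297). The mean of the 24 h group was the highest of the 4 for 23 of the 35 genes and that of the sedentary group for 10. The mean of the 2 wk group was the lowest for 17 and that of the 1 wk group for 15, and no gene had its lowest mean in sedentary mice. This order also moved with single libraries. Without 24 h library 3 the highest mean was that of the 24 h group for 13 genes and that of the sedentary group for 21, and without 24 h library 1 these numbers were 17 and 16. Without sedentary library 4 the sedentary mean was the highest for 6 genes. Without 1 wk library 3 the lowest mean was that of the 1 wk group for 26 genes and that of the 2 wk group for 7, and without 1 wk library 2 these numbers were 8 and 25. Without 2 wk library 3 or 2 wk library 4, 1 gene had its lowest mean in sedentary mice.

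**Figure D2:**
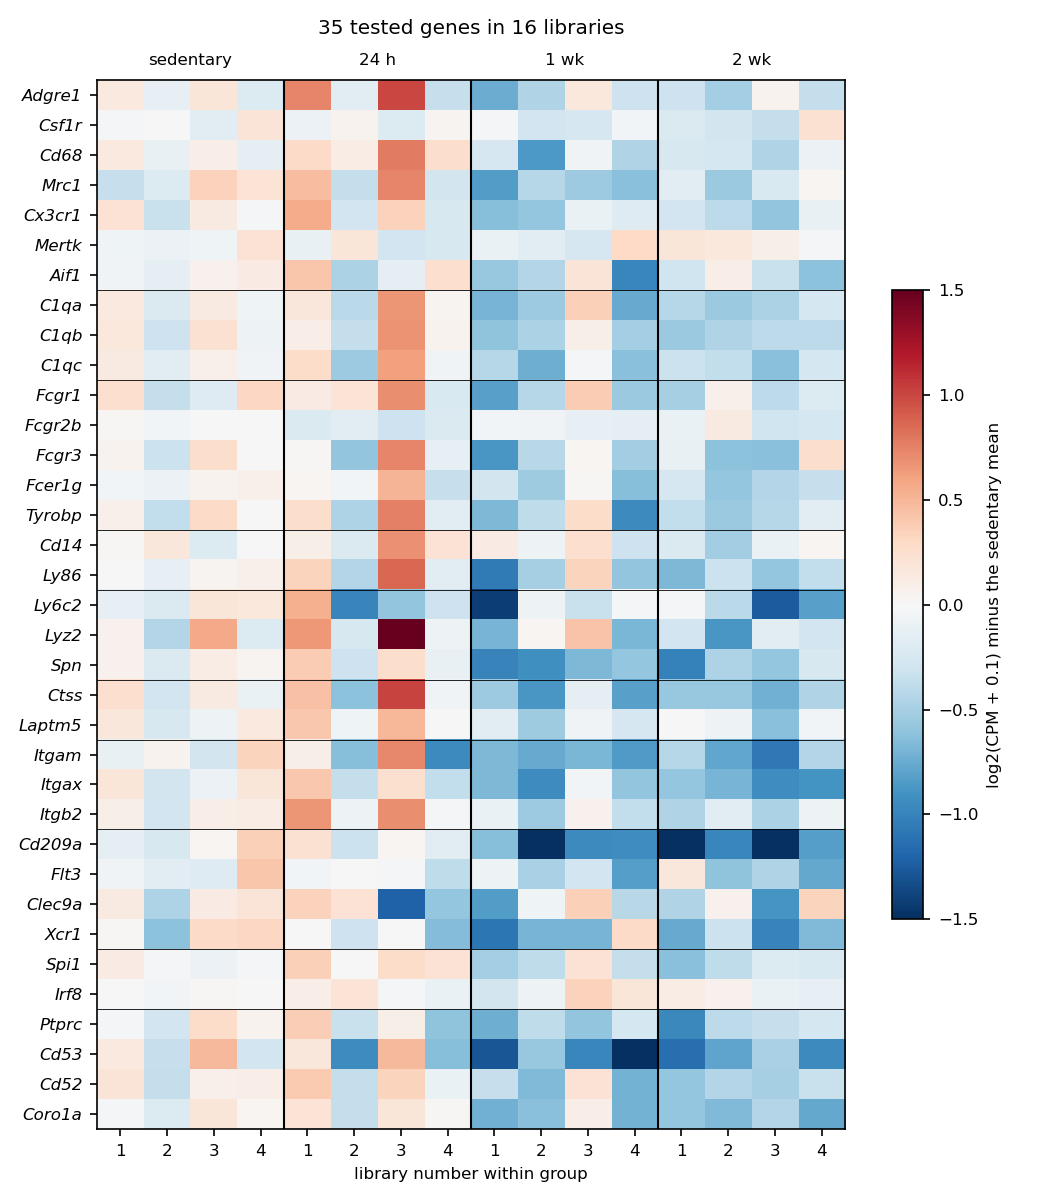
Colour map of the 35 tested genes (rows, by role) in the 16 libraries (columns, by group), as log2(CPM + 0.1) minus the mean of the sedentary libraries; red is above and blue below that mean, and colours stop at 1.5 on either side. The 1 wk and 2 wk columns are mostly blue, apart from library 3 at 1 wk, and at 24 h library 3 is the reddest.

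Among the genes of resident macrophages, the surface receptors and the endosomal protein Cd68 had lower mean values at 1 wk and 2 wk than in sedentary mice, while Csf1r and Mertk differed by little. Adgre1 had 3.38, 2.802, 3.48 and 2.62 CPM in sedentary libraries 1 to 4, 5.12, 2.73, 6.21 and 2.39 CPM at 24 h, 1.77, 2.204, 3.42 and 2.44 CPM at 1 wk and 2.45, 2.12, 3.17 and 2.37 CPM at 2 wk. Libraries 1 and 3 at 24 h were the highest of the 16 and libraries 2 and 4 lay within or below the sedentary range, and the log2 fold change at 24 h was 0.42 ± 0.26 (SE, here and below; edgeR's adjusted p = 0.658). At 1 wk it was −0.33 ± 0.26 and at 2 wk −0.29 ± 0.26, with overlapping groups.

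Csf1r, which binds the growth factors Csf1 and Il34, had 65.8, 65.9, 59.1 and 76.04 CPM in sedentary libraries 1 to 4, 62.5, 68.99, 57.5 and 68.4 CPM at 24 h, 65.7, 54.6, 55.7 and 64.5 CPM at 1 wk and 57.2, 54.9, 51.99 and 77.8 CPM at 2 wk. The 4 groups overlapped, and the log2 fold changes against sedentary were −0.05 ± 0.12 at 24 h, −0.15 ± 0.12 at 1 wk and −0.14 ± 0.12 at 2 wk. Its coefficient of variation over the 16 libraries was 12.1%. Exons of Csf1r overlap those of Hmgxb3 on the opposite strand over 873 bases, and since the strand setting of the counting is not given, reads there cannot be assigned with certainty. Mertk, a receptor kinase for the uptake of dead cells, had 38.02, 37.3, 38.1 and 46.3 CPM in sedentary libraries 1 to 4, 36.8, 45.2, 32.5 and 33.7 CPM at 24 h, 37.2, 35.3, 33.3 and 49.1 CPM at 1 wk and 45.2, 44.3, 42.4 and 39.1 CPM at 2 wk. It was the single gene of the 35 with a positive value at 2 wk (0.10 ± 0.12), again with overlap between the groups.

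Cd68 had 3.31, 2.74, 3.18 and 2.71 CPM in sedentary libraries 1 to 4, 3.66, 3.22, 5.19 and 3.59 CPM at 24 h, 2.48, 1.59, 2.86 and 2.16 CPM at 1 wk and 2.496, 2.46, 2.15 and 2.79 CPM at 2 wk. Each 24 h library lay above the mean of the sedentary ones and each 1 wk and 2 wk library below it. The log2 fold changes were 0.39 ± 0.18 at 24 h, −0.40 ± 0.18 at 1 wk and −0.27 ± 0.18 at 2 wk (edgeR's adjusted p = 0.539, 0.806 and 0.748). Mrc1, the mannose receptor CD206 of tissue macrophages, had 1.098, 1.22, 1.83 and 1.66 CPM in sedentary libraries 1 to 4, 1.999, 1.09, 2.43 and 1.16 CPM at 24 h, 0.754, 1.03, 0.944 and 0.887 CPM at 1 wk and 1.26, 0.934, 1.204 and 1.45 CPM at 2 wk. The 1 wk libraries were all below the sedentary ones (−0.68 ± 0.26, edgeR's adjusted p = 0.705), whereas the 2 wk libraries overlapped them (−0.27 ± 0.25). Cx3cr1, the fractalkine receptor, and Aif1, the actin-binding protein Iba1, ranged from 2.37 to 5.55 CPM and from 1.11 to 3.08 CPM over the 16 libraries. Their log2 fold changes at 2 wk were −0.36 ± 0.20 and −0.27 ± 0.24, and neither had an unadjusted p under 0.05 against sedentary at any duration.

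The 3 chains of C1q are made by macrophages and lie next to each other on chromosome 4 (GRCm38, 136880129 to 136898803, minus strand). C1qa had 23.5, 18.3, 23.4 and 20.3 CPM in sedentary libraries 1 to 4, 23.9, 16.1, 33.6 and 21.8 CPM at 24 h, 13.1, 14.5, 27.3 and 12.6 CPM at 1 wk and 15.8, 14.4, 15.2 and 17.7 CPM at 2 wk. C1qb, whose promoter is shown above, had 23.3, 16.8, 24.3 and 19.7 CPM in sedentary libraries 1 to 4, 22.3, 16.1, 33.3 and 21.6 CPM at 24 h, 13.7, 14.98, 22.1 and 14.6 CPM at 1 wk and 14.1, 15.1, 15.8 and 15.7 CPM at 2 wk. C1qc stood at 7.44 ± 0.689 RPKM in sedentary cortex and ranged from 8.57 to 21.9 CPM over the 16 libraries. At 2 wk all libraries of C1qa, C1qb and C1qc lay below all sedentary libraries, with log2 fold changes of −0.44 ± 0.22, −0.47 ± 0.18 and −0.40 ± 0.19 (edgeR's adjusted p = 0.6895, 0.579 and 0.685). At 1 wk, library 3 was at the sedentary level or above it for C1qa and C1qb, the other 3 libraries lay below, and the log2 fold changes were −0.34 ± 0.22, −0.36 ± 0.18 and −0.44 ± 0.19. At 24 h library 3 was the highest of the 16 for each of the 3 chains. The log2 fold changes of the 24 h group were 0.16 ± 0.22 for C1qa and 0.15 ± 0.18 for C1qb, and for C1qb and C1qc they turned negative without that library.

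Fc receptors bind antibody, and Fcer1g and Tyrobp (DAP12) are the adaptors that carry their activating signals or those of related receptors. Fcgr2b, the inhibitory receptor, which B cells and some endothelium also make, had 47.6, 45.7, 47.04 and 47.3 CPM in sedentary libraries 1 to 4, 40.5, 42.2, 37.7 and 40.4 CPM at 24 h, 45.7, 45.1, 43.1 and 42.3 CPM at 1 wk and 43.8, 51.5, 38.1 and 38.9 CPM at 2 wk. The 24 h libraries were all below the sedentary ones, with a log2 fold change of −0.22 ± 0.09 (edgeR's adjusted p = 0.465), and the sedentary libraries lay within 2 CPM of each other. At 1 wk (−0.09 ± 0.09) and 2 wk (−0.12 ± 0.09) the groups overlapped. Its coefficient of variation over the 16 libraries was the lowest of the 35 genes, 8.92%, against 32.5% for Tyrobp.

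The activating receptors and adaptors had wider ranges. Fcgr1, the high-affinity receptor, ranged from 0.621 to 1.96 CPM, Fcgr3 from 2.11 to 6.63 CPM, Fcer1g from 3.69 to 8.28 CPM and Tyrobp from 3.59 to 12.01 CPM over the 16 libraries, each highest in 24 h library 3. At 2 wk their log2 fold changes were −0.28 ± 0.28, −0.26 ± 0.26, −0.41 ± 0.17 and −0.40 ± 0.25, and for Fcer1g alone among them all 4 libraries lay below the sedentary ones (edgeR's adjusted p = 0.617). Fcgr2b and Fcgr3 share sequence, 12.8% of the 50-base stretches of Fcgr3 exons and 7.44% of those of Fcgr2b, so a share of their reads is uncertain.

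Cd14, the co-receptor for lipopolysaccharide, had 4.097, 4.56, 3.48 and 4.05 CPM in sedentary libraries 1 to 4, 4.28, 3.45, 6.54 and 4.69 CPM at 24 h, 4.41, 3.81, 4.799 and 3.23 CPM at 1 wk and 3.44, 2.77, 3.76 and 4.12 CPM at 2 wk. Its log2 fold change was 0.23 ± 0.18 at 24 h and −0.20 ± 0.18 at 2 wk, with all groups overlapping, and at 1 wk it was one of the 2 genes that were not negative. Ly86 (MD-1), the partner of a toll-like receptor relative, ranged from 1.42 to 5.67 CPM, and its 2 wk libraries lay below all sedentary ones (−0.49 ± 0.27, edgeR's adjusted p = 0.714).

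Of the monocyte genes, Spn showed the clearest separation. It encodes sialophorin (CD43), a surface mucin of leukocytes that is high on patrolling monocytes and is also found on T cells. Spn had 3.61, 2.94, 3.71 and 3.54 CPM in sedentary libraries 1 to 4, 4.52, 2.75, 4.15 and 3.18 CPM at 24 h, 1.66, 1.77, 2.12 and 2.26 CPM at 1 wk and 1.65, 2.46, 2.26 and 2.901 CPM at 2 wk. All 1 wk and all 2 wk libraries lay below all sedentary libraries, and all 1 wk libraries also below all 24 h libraries. The log2 fold change was −0.82 ± 0.19 at 1 wk and −0.57 ± 0.18 at 2 wk (edgeR's adjusted p = 0.378 and 0.429), and 0.08 ± 0.18 at 24 h.

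Ly6c2, the marker of inflammatory monocytes, had 0.575, 0.534, 0.738 and 0.725 CPM in sedentary libraries 1 to 4, 0.971, 0.273, 0.391 and 0.495 CPM at 24 h, 0.177, 0.597, 0.485 and 0.625 CPM at 1 wk and 0.62999, 0.459, 0.211 and 0.32001 CPM at 2 wk. Counts were low, 8 to 52 per library, the groups overlapped and the SE was wide (−0.67 ± 0.40 at 2 wk). Its exons share 13.1% of their 50-base stretches with other genes, Ly6c1 among them, and part of its count is uncertain. Lyz2 had 24.6, 17.3, 35.004 and 20.5 CPM in sedentary libraries 1 to 4, 36.9, 19.8, 67.5 and 22.3 CPM at 24 h, 14.5, 23.9, 31.7 and 14.5 CPM at 1 wk and 19.2, 12.8, 20.96 and 19.3 CPM at 2 wk. Library 3 at 24 h stood far above the other 15. The log2 fold change was 0.59 ± 0.36 at 24 h, −0.20 ± 0.36 at 1 wk and −0.43 ± 0.37 at 2 wk, and the groups overlapped. Lyz2 shares 15.4% of its 50-base stretches with Lyz1, so that these reads are uncertain too.

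Ctss, cathepsin S, a protease of the antigen-loading compartment, had 12.8, 8.79, 11.9 and 10.1 CPM in sedentary libraries 1 to 4, 14.7, 7.02, 21.9 and 10.4 CPM at 24 h, 7.37, 5.85, 9.75 and 6.07 CPM at 1 wk and 7.27, 7.23, 6.49 and 7.89 CPM at 2 wk. Libraries 1 and 3 at 24 h were the highest of the 16. The 2 wk libraries lay below all sedentary libraries, and the log2 fold changes were 0.31 ± 0.24 at 24 h, −0.59 ± 0.25 at 1 wk and −0.60 ± 0.25 at 2 wk (edgeR's adjusted p = 0.752, 0.766 and 0.623). Laptm5, a lysosomal membrane protein of blood cells, had 14.4, 10.9, 12.1 and 14.1 CPM in sedentary libraries 1 to 4, 17.04, 12.2, 18.1 and 12.9 CPM at 24 h, 11.4, 8.84, 12.4 and 10.7 CPM at 1 wk and 12.7, 12.1, 8.28 and 12.4 CPM at 2 wk. Its groups overlapped, with log2 fold changes of 0.23 ± 0.16, −0.26 ± 0.16 and −0.18 ± 0.16 at 24 h, 1 wk and 2 wk.

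The integrin chains Itgam (CD11b) and Itgax (CD11c) pair with Itgb2 (CD18), and CD11c is the usual surface marker of dendritic cells and of many kidney macrophages. Itgax had 2.44, 1.76, 2.02 and 2.45 CPM in sedentary libraries 1 to 4, 2.88, 1.66, 2.56 and 1.63 CPM at 24 h, 1.31, 1.07, 2.09 and 1.39 CPM at 1 wk and 1.41, 1.29, 1.08 and 1.11 CPM at 2 wk. All 2 wk libraries were below all sedentary and all 24 h libraries, and 3 of the 4 libraries at 1 wk were below all sedentary ones. The log2 fold change was −0.57 ± 0.23 at 1 wk and −0.83 ± 0.23 at 2 wk (edgeR's adjusted p = 0.729 and 0.357), against 0.01 ± 0.22 at 24 h. Itgb2 had 3.96, 3.02, 3.99 and 4.03 CPM in sedentary libraries 1 to 4, 5.94, 3.52, 6.13 and 3.64 CPM at 24 h, 3.46, 2.51, 3.91 and 2.86 CPM at 1 wk and 2.69, 3.31, 2.66 and 3.54 CPM at 2 wk. Its 24 h libraries 1 and 3 were the highest, and the log2 fold changes were 0.36 ± 0.19 at 24 h, −0.24 ± 0.20 at 1 wk and −0.30 ± 0.20 at 2 wk, with overlap in each comparison with sedentary mice.

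Itgam ranged from 0.262 to 0.311 CPM at 1 wk and 0.211 to 0.388 CPM at 2 wk, both below the sedentary 0.443 to 0.725 CPM, with log2 fold changes of −0.94 ± 0.37 and −0.84 ± 0.36 (edgeR's adjusted p = 0.729 and 0.641). It had 10 to 45 counts per library. A second gene model on the same strand, Gm49368, covers 3450 bases of its exons, and the reads that fall there are uncertain. Itgax shares 9.61% of its 50-base stretches with Itgad.

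Of the 4 dendritic cell genes, Cd209a stood out and the other 3 were near the limit of detection. Cd209a is a mouse relative of the lectin DC-SIGN and a marker of monocyte-derived dendritic cells (GRCm38, chromosome 8, 3743397 to 3748984, minus strand). Cd209a had 1.499, 1.401, 1.71 and 2.18 CPM in sedentary libraries 1 to 4, 1.98, 1.31, 1.72 and 1.48 CPM at 24 h, 1.04, 0.494, 0.817 and 0.826 CPM at 1 wk and 0.4604, 0.8004, 0.465 and 0.896 CPM at 2 wk. All 1 wk and all 2 wk libraries lay below all sedentary and all 24 h libraries, with no overlap. The level was 0.795 ± 0.226 CPM at 1 wk and 0.655 ± 0.226 CPM at 2 wk, against 1.696 ± 0.344 CPM in sedentary mice (SD, n = 4). The log2 fold change was −1.09 ± 0.26 at 1 wk and −1.35 ± 0.26 at 2 wk, the largest at 2 wk among the 35 genes (edgeR's adjusted p = 0.378 and 0.141), and −0.06 ± 0.24 at 24 h. Its counts were 19 to 106 per library. At 2 wk its adjusted p was 0.0403 in edgeR when genes of low counts were not filtered out, so that its side of the threshold depended on that filter and on the tool.

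Flt3, the growth factor receptor of dendritic cells, ranged from 0.302 to 0.853 CPM, Clec9a, a receptor for dead cells on type 1 dendritic cells, from 0.1303 to 0.587 CPM, and the chemokine receptor Xcr1 of the same cells from 0.133 to 0.512 CPM. Their log2 fold changes at 2 wk were −0.48 ± 0.28, −0.22 ± 0.42 and −0.91 ± 0.39, with overlapping groups. With 6 to 40 counts per library, smaller differences in these 3 genes were not detectable at this depth.

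The transcription factors differed from each other. Spi1 had 4.17, 3.76, 3.56 and 3.75 CPM in sedentary libraries 1 to 4, 4.91, 3.82, 4.63 and 4.43 CPM at 24 h, 2.64, 2.905, 4.44 and 2.94 CPM at 1 wk and 2.42, 2.905, 3.27 and 3.24 CPM at 2 wk. All 24 h libraries lay above the sedentary mean and all 2 wk libraries lay below every sedentary and 24 h library, with log2 fold changes of 0.22 ± 0.16 at 24 h, −0.24 ± 0.16 at 1 wk and −0.36 ± 0.16 at 2 wk (edgeR's adjusted p = 0.709, 0.912 and 0.642). Irf8, needed for monocytes and type 1 dendritic cells and also made by B cells, had 15.5, 14.9, 15.6 and 15.5 CPM in sedentary libraries 1 to 4, 16.5, 17.8, 14.99 and 14.3 CPM at 24 h, 12.6, 14.5, 19.5 and 17.4 CPM at 1 wk and 16.5, 16.1, 14.3 and 14.04 CPM at 2 wk. The sedentary libraries lay within 1 CPM of each other, the groups overlapped, and the log2 fold changes were 0.05 ± 0.12, 0.06 ± 0.12 and −0.01 ± 0.12 at 24 h, 1 wk and 2 wk. The coefficient of variation was 10.7% for Irf8, against 20.9% for Spi1.

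**Figure D3:**
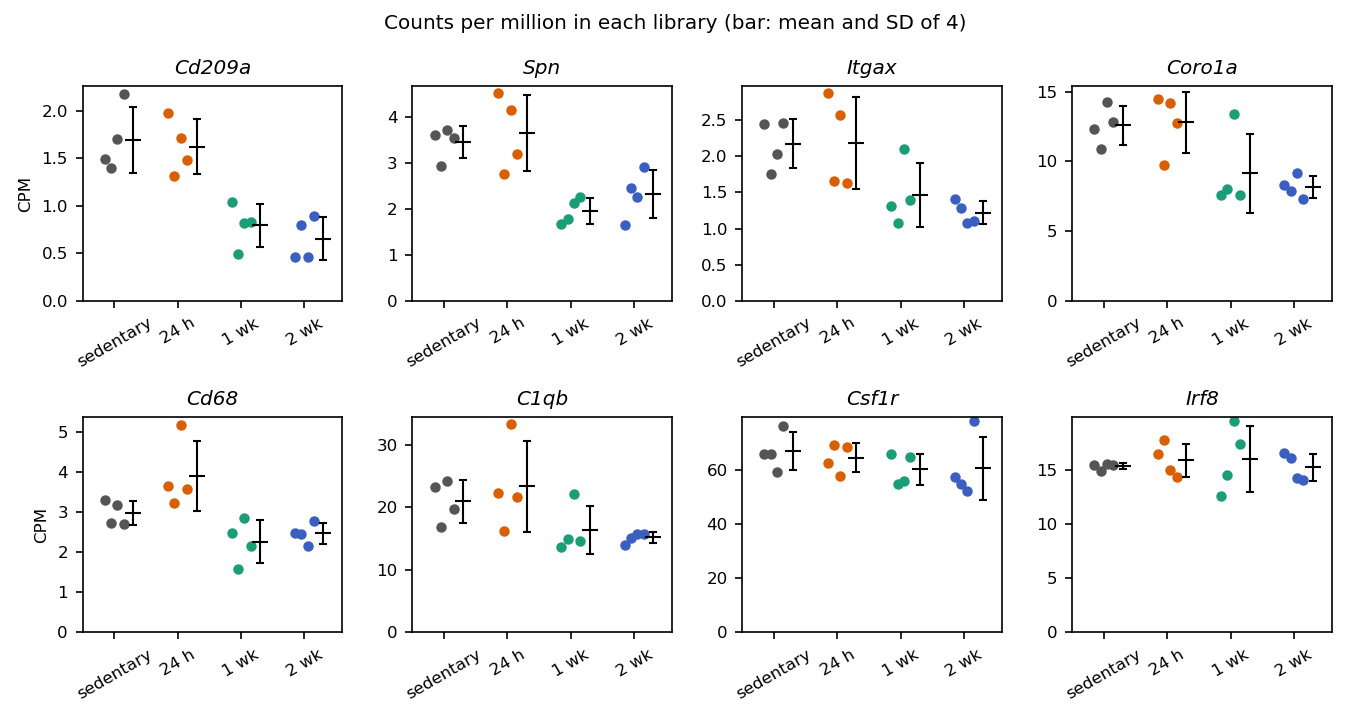
CPM of 8 of the genes in each library, by group, with the mean and SD of 4 libraries beside the points. Cd209a, Spn, Itgax and Coro1a lie lower at 1 wk and 2 wk, with library 3 at 1 wk apart for Itgax and Coro1a, whereas the groups of Csf1r and Irf8 overlap.

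The genes shared by all leukocytes, which lymphocytes carry as well, had lower values at 1 wk and 2 wk. Coro1a, which encodes coronin 1A, an actin regulator, had 12.4, 10.9, 14.3 and 12.8 CPM in sedentary libraries 1 to 4, 14.5, 9.74, 14.2 and 12.7 CPM at 24 h, 7.59, 8.06, 13.4 and 7.62 CPM at 1 wk and 8.34, 7.87, 9.19 and 7.296 CPM at 2 wk. At 2 wk its libraries were all below the sedentary ones (−0.62 ± 0.17, edgeR's adjusted p = 0.357), and at 1 wk library 3 lay inside the sedentary range while the other 3 lay below it (−0.46 ± 0.17, edgeR's adjusted p = 0.671). Cd53, a tetraspanin, had 1.85, 1.29, 2.36 and 1.34 CPM in sedentary libraries 1 to 4, 1.89, 0.818, 2.37 and 1.03 CPM at 24 h, 0.621, 1.09, 0.791 and 0.524 CPM at 1 wk and 0.703, 0.919, 1.16 and 0.811 CPM at 2 wk. All its 1 wk and 2 wk libraries lay below all sedentary ones, with log2 fold changes of −1.18 ± 0.32 and −0.92 ± 0.31 (edgeR's adjusted p = 0.485 and 0.4698). Ptprc ranged from 1.82 to 4.74 CPM and the small glycoprotein gene Cd52 from 4.68 to 10.1 CPM over the 16 libraries, with log2 fold changes at 2 wk of −0.49 ± 0.21 and −0.48 ± 0.20.

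**Figure D4:**
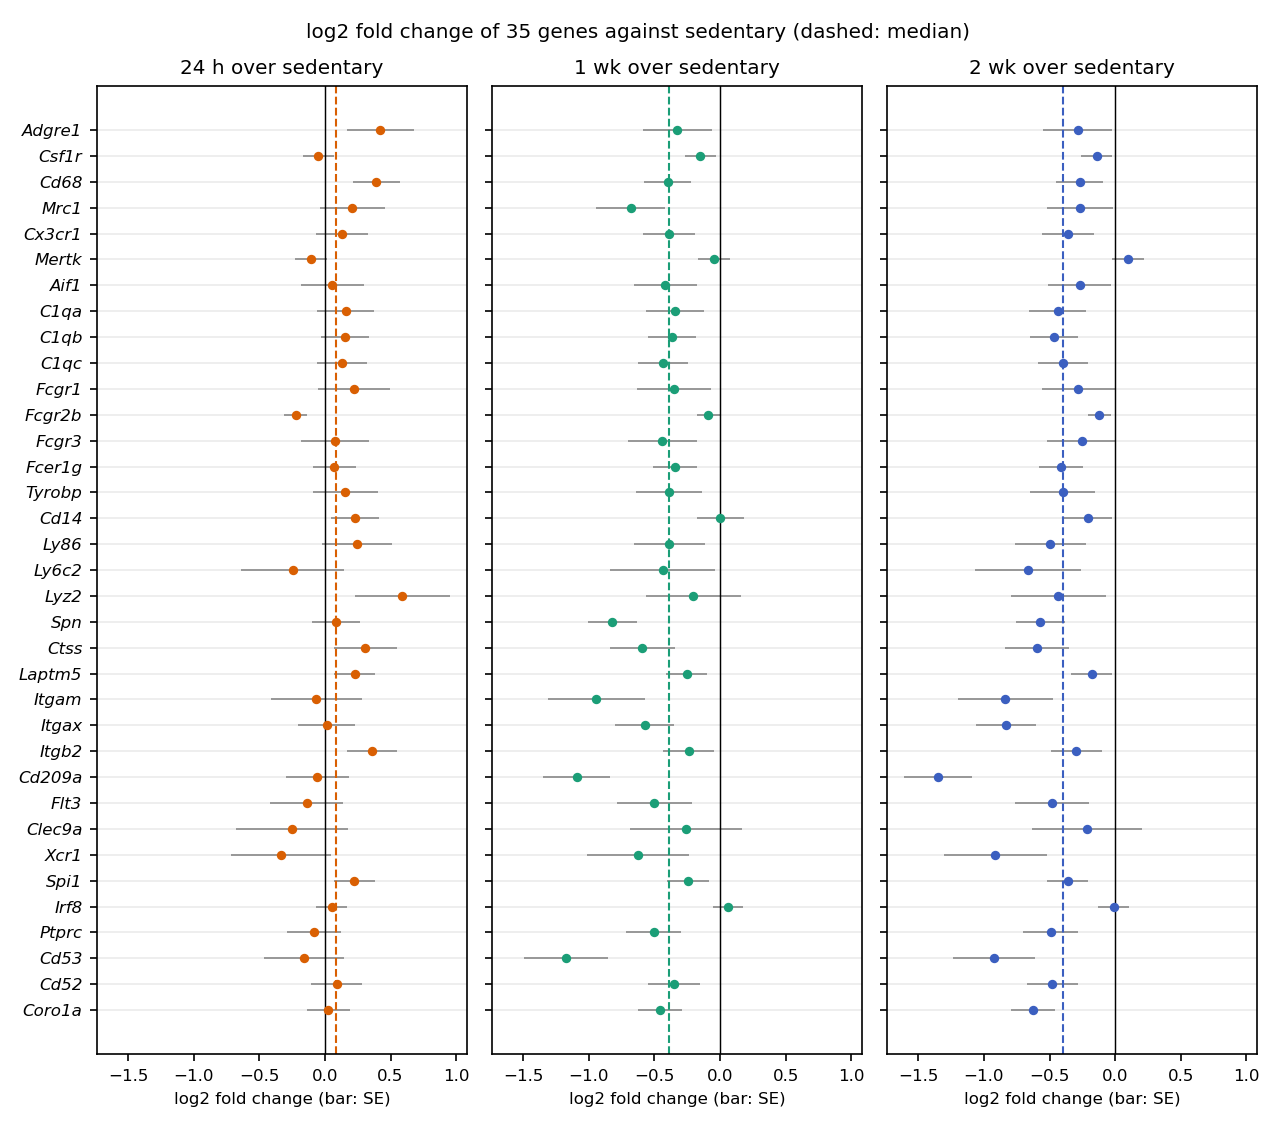
Log2 fold change against sedentary mice for the 35 tested genes at 24 h, 1 wk and 2 wk; points are edgeR estimates, bars are SE and the dashed line is the median, 0.08 at 24 h, −0.39 at 1 wk and −0.40 at 2 wk. Nearly all points lie left of 0 at 1 wk and 2 wk, with Csf1r, Mertk, Fcgr2b and Irf8 close to it.

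Between the durations, most of the genes had lower values at 1 wk than at 24 h. Of the 35 genes 32 had a negative log2 fold change at 1 wk against 24 h, against 45.6% of all tested genes, with a median of −0.52. EdgeR called none of them and none of all genes (0%), and voom called none of them. DESeq2 called Cd68, Spn and Cd209a, against 59 genes in the whole table. At an unadjusted p under 0.05, 22 of the 35 genes were lower, against 4.72% of all genes. The smallest p were those of Spn (−0.91 ± 0.19, edgeR's adjusted p = 0.216), Cd68 (−0.79 ± 0.18, 0.236), Cd209a (−1.04 ± 0.26, 0.274) and Ctss (−0.90 ± 0.25, 0.317). All 1 wk libraries lay below all 24 h libraries for Cd68, Mrc1, Spn and Cd209a, 4 of the 35, against 1.85% of all genes. They lay above all 24 h libraries for Fcgr2b, 1 of the 35, against 172 of all 16126 tested genes. Libraries again set these counts: at an unadjusted p under 0.05, 10 genes were lower without 24 h library 3, 14 without 24 h library 1 and 13 without 1 wk library 2. Without 1 wk library 3, 13 genes did not overlap, but fewer libraries make a gap between groups easier to reach. In the same comparison all 8 fibroblast genes were negative (median −0.64, 5 with an unadjusted p under 0.05). So were all 12 endothelial genes (median −0.34, 9 with an unadjusted p under 0.05), 11 of 12 T cell genes (median −0.52) and 6 of 7 tested plasma cell genes (median −0.97). The T cell genes summed to 13.5, 6.54, 6.19 and 6.73 CPM in 24 h libraries 1 to 4, against 5.01 to 7.07 CPM at 1 wk. Only library 1 at 24 h thus lay above the 1 wk range. The part of these 4 lists in the values of the phagocyte genes was not tested.

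Most genes also had lower values at 2 wk than at 24 h. Of the 35 genes 32 were negative, against 47.8% of all tested genes, with a median of −0.55. None of the 35 was called by edgeR, against 2 genes of the whole table (0.0124%). DESeq2 called Cd209a alone (adjusted p = 0.00182), against 36 genes in the whole table, and voom called none of the 35, against 4. At an unadjusted p under 0.05, 22 were lower, against 4.32% of all genes, or 10 without 24 h library 3. All 2 wk libraries lay below all 24 h libraries for Cd68, C1qb, Itgax, Cd209a, Spi1 and Coro1a, 6 of the 35, against 1.56% of all genes. That number was 16 without 24 h library 2 and 11 without 2 wk library 4, where fewer libraries make a gap easier to reach. The smallest p were those of Cd209a (−1.29 ± 0.26, edgeR's adjusted p = 0.154), Coro1a (−0.65 ± 0.17, 0.319), Spi1 (−0.59 ± 0.16, 0.335) and Itgax (−0.84 ± 0.23, 0.335).

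At 2 wk against 1 wk the signs were mixed. Of the 35 genes 18 were negative, against 47.7% of all tested genes, with a median of −0.004. No gene was called by edgeR (0% of all genes). DESeq2 and voom called none of the 35, against 4 and 1 genes in the whole table. At an unadjusted p under 0.05 by edgeR none of the 35 was lower, against 1.71% of all genes, and none was higher, against 2.86%. The smallest p were those of Mrc1 (0.41 ± 0.26, edgeR's adjusted p = 0.868), Spn (0.25 ± 0.19, 0.868), Mertk (0.14 ± 0.12, 0.869) and Cd14 (−0.21 ± 0.18, 0.869). Without 1 wk library 3, 8 genes were negative and the median was 0.11. All 7 tested genes of resident macrophages were positive in this comparison, from 0.007 to 0.41, with a median of 0.13 and a median SE of 0.20. The value of Csf1r, the smallest of them, turned negative with 1 library left out (lowest −0.14).

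The growth factors and receptors that feed this lineage were listed apart. For this list and those below, 51% of all tested genes were negative at 24 h, 48.9% at 1 wk and 47.9% at 2 wk. Of 10 such genes 8 were tested, and 3 were negative at 24 h, 6 at 1 wk and 3 at 2 wk, with medians of 0.01, −0.21 and 0.03. Csf1, the main macrophage growth factor, averaged 5.88 ± 0.633 CPM in sedentary mice, 7.07 ± 1.28 CPM at 24 h, 5.101 ± 0.692 CPM at 1 wk and 5.88 ± 0.722 CPM at 2 wk. Its log2 fold change at 1 wk against 24 h was −0.47 ± 0.15 (edgeR's adjusted p = 0.362). Flt3l, the ligand of Flt3, had a log2 fold change of −0.48 ± 0.26 at 2 wk against sedentary (edgeR's adjusted p = 0.714), and the shared receptor chain Csf2rb one of −0.52 ± 0.25 at 1 wk (0.825).

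Further myeloid genes outside the 36 were counted in the same way. Of 29 tested tissue macrophage genes, 10 were negative at 24 h, 23 at 1 wk and 21 at 2 wk, with medians of 0.12, −0.36 and −0.22. Among them the lectin Clec4a3 had −0.93 ± 0.32 at 1 wk and Ms4a6b −0.83 ± 0.28 at 2 wk (edgeR's adjusted p = 0.658 and 0.495). The list includes genes that tubules also express, and Marco had no count in any library.

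Of 12 tested monocyte genes, 6 were negative at 24 h, 8 at 1 wk and 8 at 2 wk, with medians of 0.02, −0.19 and −0.26, and at 1 wk against 24 h the median was −0.14. Ccr2, the receptor that brings inflammatory monocytes out of the marrow, averaged 1.68 ± 0.288 CPM at 1 wk and 1.54 ± 0.223 CPM at 2 wk, against 2.73 ± 0.701 CPM in sedentary mice, with log2 fold changes of −0.70 ± 0.24 and −0.83 ± 0.24 (edgeR's adjusted p = 0.658 and 0.374). Chil3 went the other way (1.15 ± 0.47 at 1 wk, 0.751), at a level under 1 CPM. Of 17 tested dendritic cell genes, 12 were negative at 24 h, 14 at 1 wk and 14 at 2 wk, with medians of −0.09, −0.16 and −0.13. At 1 wk against 24 h 9 of the 17 were negative, against 45.6% of all tested genes, with a median of −0.008. The galactose lectin Mgl2 averaged 2.13 ± 0.137 CPM at 2 wk and 3.19 ± 0.167 CPM in sedentary mice, with all 2 wk libraries below all sedentary ones (−0.58 ± 0.14, edgeR's adjusted p = 0.271), and Naaa had −0.28 ± 0.10 (0.531).

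Of 26 genes of myeloid signalling and of the oxidase, 12 were negative at 24 h, 22 at 1 wk and 23 at 2 wk, with medians of 0.01, −0.30 and −0.34. Nckap1l, a regulator of actin in blood cells, had −0.51 ± 0.16 at 1 wk and −0.63 ± 0.16 at 2 wk, and the lipid phosphatase gene Inpp5d −0.56 ± 0.17 at 1 wk (edgeR's adjusted p = 0.548, 0.357 and 0.548). The kinase gene Syk was positive at 24 h (0.46 ± 0.20, 0.518), with all 4 libraries above all sedentary ones. No gene of these 5 lists passed at an adjusted p under 0.05 in any of the 3 comparisons with sedentary mice by edgeR.

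Markers of other cell types also had other values in the running mice, and their part in the values above was not tested. Of all tested genes, 3.72% were lower at an unadjusted p under 0.05 by edgeR at 1 wk and 3.24% at 2 wk. By the same measure 4.49% were higher at 24 h, and 4.32% were lower at 2 wk against 24 h. All 12 endothelial genes were negative at 1 wk (median −0.35, 10 with an unadjusted p under 0.05) and at 2 wk (median −0.23, 2 with an unadjusted p under 0.05), and their sum was 429.6 to 530.4 CPM at 1 wk and 433 to 641 CPM at 2 wk, against 558 to 649 CPM in sedentary mice. Of 12 T cell genes 10 were negative at 1 wk (median −0.27) and 12 at 2 wk (median −0.39), with sums of 5.01 to 7.07 CPM at 1 wk and 4.94 to 6.29 CPM at 2 wk, against 7.103 to 8.54 CPM. Of 8 natural killer cell genes 5 were tested, and 4 were negative at 1 wk (median −0.54) and 4 at 2 wk (median −0.83, 3 with an unadjusted p under 0.05), with sums of 1.35 to 1.77 CPM at 1 wk and 1.29 to 1.98 CPM at 2 wk, against 1.91 to 2.58 CPM in sedentary mice. Of 8 plasma cell genes 7 were tested, and 5 were positive at 24 h (median 1.16, 3 with an unadjusted p under 0.05) and 6 negative at 2 wk (median −0.80). Against 24 h all 7 were negative at 2 wk (median −1.80, 4 with an unadjusted p under 0.05). The mean of log2(CPM + 0.1) minus the sedentary mean over the plasma cell genes was 1.28, 0.08, 0.49 and 0.28 in 24 h libraries 1 to 4, highest in library 1. By sum the plasma cell genes had 168 to 208 CPM in sedentary mice, 161 to 352 CPM at 24 h, 186 to 197 CPM at 1 wk and 130.01 to 224 CPM at 2 wk, with 24 h library 3 the highest. All 8 fibroblast genes were positive at 24 h (median 0.45, 3 with an unadjusted p under 0.05), 7 were negative at 1 wk (median −0.18, 2 with an unadjusted p under 0.05) and 5 at 2 wk (median −0.11), with a sum of 125 to 209 CPM at 24 h and 109 to 151 CPM in sedentary mice, and 24 h library 3 was the highest there as well. The 6 erythroid genes were all positive at 2 wk (median 1.25), with sums of 718 to 1670 CPM at 2 wk and 374 to 632 CPM in sedentary mice. The 12 neutrophil genes summed to 1.41 to 2.304 CPM in sedentary mice, 1.02 to 2.95 CPM at 24 h, 1.39 to 3.23 CPM at 1 wk and 1.27 to 4.57 CPM at 2 wk, and 4 of them could be tested. The 7 B cell genes summed to 2.402 to 3.37 CPM in sedentary mice, 1.59 to 3.23 CPM at 24 h, 1.86 to 3.68 CPM at 1 wk and 2.06 to 3.24 CPM at 2 wk. None of the genes of these 8 lists was at 0 in all libraries.

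**Figure D5:**
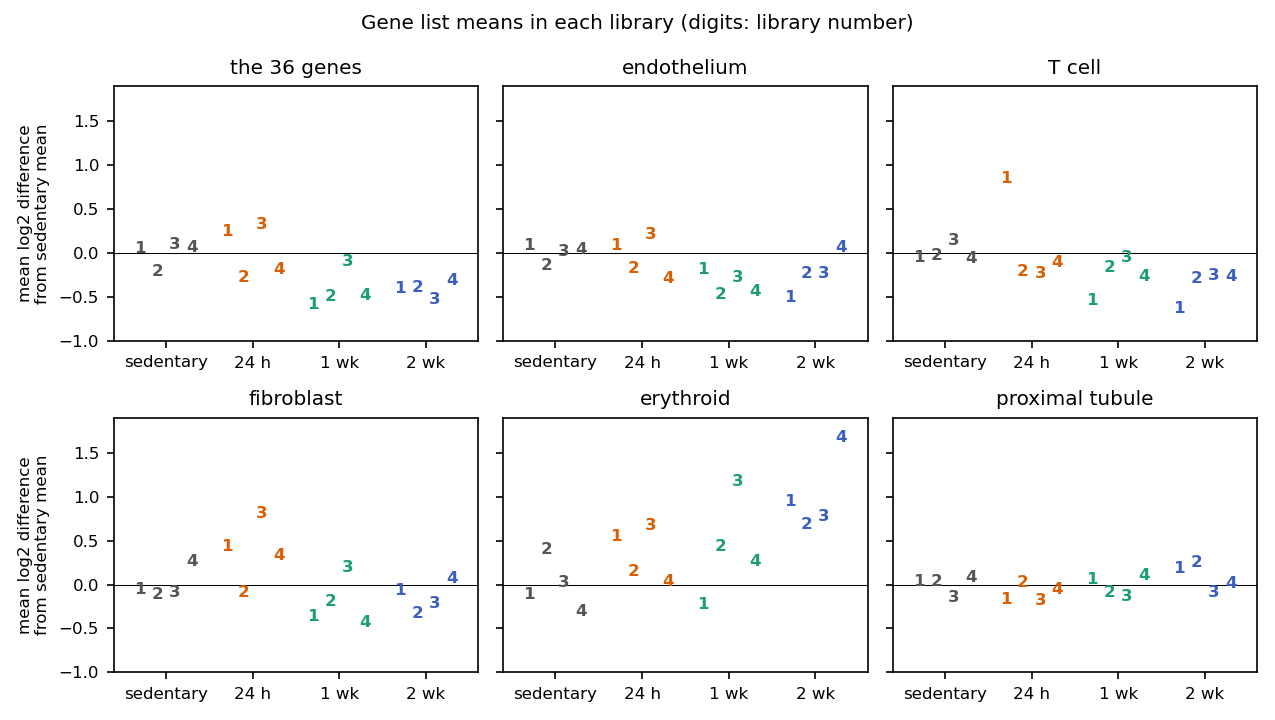
Mean of log2(CPM + 0.1) minus the sedentary mean over the genes of 6 lists in each library; digits are library numbers. The 36 phagocyte genes and the endothelial and T cell genes lie mostly below 0 at 1 wk and 2 wk, fibroblast genes lie highest in 24 h library 3, erythroid genes lie above 0 at 2 wk, and proximal tubule genes stay near 0.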

How the data were processed

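Total RNA of kidney cortex was purified on columns and made into strand-marked polyA libraries, per the labels' protocols. The values the authors deposited are raw counts for each gene, counted by the authors with HTSeq 0.10.0 on GRCm38 (mm10) after FastQC 0.10.1, per the submitters' processing notes. For the aligner, annotation release and strand setting: not given in the sources used here. Of the 24 columns, 16 were joined to samples by name and 8 that match no sample were not used.

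Symbols and exon lengths came from GENCODE M21 and promoters from RefSeq. EdgeR 4.0.16 in R 4.3.3 (filterByExpr by group, TMM, robust quasi-likelihood F-test, Benjamini-Hochberg over 16126 genes, threshold 0.05) was fitted to all 16 libraries. It was tested on simulated data with planted changes larger than most seen here, which does not show its power for smaller ones. DESeq2 1.42.0 and limma 3.58.1 (voom with quality weights) were alternatives. SE is the log2 fold change divided by the root of F. Exon sharing was read from 50-base stretches.

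The genes and lists were chosen with earlier results of these data known. All 36 genes have a level or range here; every library is given for the 6 of smallest p against sedentary at each duration, the 4 of smallest p between durations and 10 set markers (Adgre1, Csf1r, Cd68, Mrc1, C1qa, Cd209a, Ly6c2, Itgax, Spi1 and Irf8). In each further myeloid list, genes of smallest p are named, apart from some that are not reported here.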

Additional observations from a re-analysis of the deposited data

Results flagged for a closer look

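Each of the 35 tested genes was examined in each of the 4 groups, 140 groups of 4 libraries, for a library whose gap to its nearest neighbour was, as a share of the group's range, above Dixon's 95% critical value. There were 10 such cases, and chance alone gives about 1 in 20 groups. Library 3 at 1 wk stood above the other 3 for C1qa (27.3 CPM, next 14.5 CPM), C1qb (22.1 CPM, next 14.98 CPM), Coro1a (13.4 CPM, next 8.06 CPM) and the PU.1 gene Spi1 (4.44 CPM, next 2.94 CPM). Library 2 of the sedentary group stood below the others for the integrin gene Itgb2 (3.02 CPM, next 3.96 CPM), Clec9a (0.289 CPM, next 0.485 CPM) and Irf8 (14.9 CPM, next 15.5 CPM). Sedentary library 4 stood above the others for Mertk (46.3 CPM, next 38.1 CPM). Library 3 at 2 wk stood below the others for Laptm5 (8.28 CPM, next 12.1 CPM), and library 4 at 24 h below the others for Flt3 (0.452 CPM, next 0.598 CPM).

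For Cd68 all 24 h libraries lay above the sedentary mean and all 1 wk and 2 wk libraries below it, although Cd68 passed against sedentary at no duration. The difference between the durations had a log2 fold change of −0.79 at 1 wk against 24 h (edgeR's adjusted p = 0.236) and −0.66 at 2 wk against 24 h (adjusted p = 0.339), neither past the threshold. The same was seen for Spi1 at 2 wk against 24 h, with −0.59 (edgeR's adjusted p = 0.335).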

How the results depend on the processing

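Over the 35 tested genes and 6 comparisons, no value changed side of the threshold, or sign by more than its SE, with DESeq2 size factors, no scaling or the replicate block (210 values each), with at least 1 CPM in 4 libraries (180 values) or with only the groups compared (209 values). Within the SE, 4 values changed sign with no scaling, 6 with the block and 15 with voom. DESeq2 called 7 of the 210 gene values and edgeR without the filter 2, those of Cd209a at 2 wk against sedentary (adjusted p = 0.0403) and against 24 h (0.0481). With voom the value of Cd209a at 2 wk against 1 wk turned positive (0.0363). The cause was not tested. Under scaling alternatives the median log2 fold change of all genes moved by under 0.1.

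Counts of called genes over the whole table depended on the tool. At 24 h against sedentary edgeR called 2 with no scaling, 9 with no filter and 28 with only these groups, DESeq2 77 and voom 59. At 1 wk DESeq2 called 14 and voom 6. At 2 wk edgeR called 5 with no filter, 2 with only these groups and 3 without libraries 3 of 24 h and 1 wk together, a setting chosen after seeing the data, DESeq2 35 and voom 7. At 1 wk against 24 h DESeq2 called 59. At 2 wk against 1 wk DESeq2 called 4 and voom 1. At 2 wk against 24 h edgeR called 4 with no scaling, 8 with no filter and 4 with at least 1 CPM in 4 libraries, DESeq2 36 and voom 4. Over the 4 groups edgeR called 10 with no filter and 0 without the 2 libraries 3, DESeq2 160 and voom 34. Same-numbered libraries did not deviate together in all pairs (correlations −0.24 to 0.37), so the numbers were not taken to pair the libraries. With the replicate block edgeR called 5 genes at 2 wk against sedentary, 11 at 2 wk against 24 h and 5 over the 4 groups.

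With 1 library left out in turn, edgeR called 0 to 5 genes at 24 h, 0 to 1 at 1 wk and 0 to 8 at 2 wk against sedentary, 0 to 2 at 1 wk against 24 h, 0 at 2 wk against 1 wk, 0 to 7 at 2 wk against 24 h and 0 to 5 over the 4 groups. Negative genes of the 35 numbered 7 to 21 at 24 h, 32 to 34 at 1 wk, 32 to 34 at 2 wk, 30 to 33 at 1 wk against 24 h, 8 to 25 at 2 wk against 1 wk and 31 to 34 at 2 wk against 24 h. Their medians were −0.03 to 0.21, −0.54 to −0.31, −0.47 to −0.37, −0.71 to −0.36, −0.0652 to 0.11 and −0.65 to −0.39 in the same order. Without libraries 3 of 24 h and 1 wk together, 21 genes were negative at 24 h, and at 2 wk against 1 wk 8 were, with a median of 0.11, while at 2 wk against 24 h the median was −0.39, and −0.41 by voom. With at least 1 CPM in 4 libraries, 30 genes were left and 6 were negative at 24 h.

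Signs of single genes that changed by more than the SE when 1 library was left out were all of values short of the threshold. At 24 h against sedentary the ranges were −0.069 to 0.29 for C1qb, −0.072 to 0.30 for C1qc, −0.23 to 0.25 for Fcgr3, −0.11 to 0.19 for Fcer1g, −0.11 to 0.31 for Tyrobp, −0.0499 to 0.42 for Ly86 and −0.0251 to 0.52 for Ctss. At 1 wk against 24 h they were −0.067 to 0.17 for Mertk and −0.40 to 0.28 for Ly6c2. At 2 wk against 1 wk they were −0.14 to 0.073 for Csf1r, −0.23 to 0.23 for C1qa, −0.18 to 0.28 for Tyrobp, −0.29 to 0.23 for Ly86, −0.52 to 0.25 for Xcr1, −0.20 to 0.0665 for Spi1, −0.25 to 0.11 for Cd52 and −0.25 to 0.0752 for Coro1a. At 2 wk against 24 h they were −0.0011 to 0.16 for Fcgr2b and −0.68 to 0.0483 for Ly6c2. Low counts, 6 to 40 per library in Flt3, Clec9a and Xcr1, limit what can be seen of dendritic cells.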
